A study of Mus musculus with 19 samples.

Results

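Notch pathway genes were followed through RNA-seq libraries of cultured mouse neural progenitor cells. The set held 10 genes of the 26621 in the count table, taken by symbol with earlier results of these data known. They were the receptors Notch1, Notch2 and Notch3, the ligands Dll1, Dll3 and Jag1, and the DNA-binding factor Rbpj. The target genes Hes1, Hes5 and Hey1 completed the set. All 10 were found and all 10 passed the filter on low counts, which kept 13105 genes. The progenitors came from the cerebral cortex at embryonic day 17.5 and were grown on Matrigel in B27 and N2 medium with bFGF and EGF. RNA-seq libraries were made by SMART-seq2 from 300 ng of total RNA of 6 samples titled Mettl8-cKO (conditional knockout) and 6 samples titled WT (wild type). A second label calls the cKO genotype a Mettl8 knockout, and no label names a Cre driver or its promoter. Hydrazine-aniline cleavage sequencing (HAC-seq), which reads 3-methylcytidine (m3C) as RNA cleavage, was made from 8000 ng of total RNA of 3 cKO and 4 WT samples. The library names fall into 2 sets, and the labels do not say what a set is: set 2 holds 4 cKO and 3 WT libraries, and set 1 holds 2 cKO and 3 WT libraries.

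Notch is a receptor that is cut when a ligand on a neighbouring cell binds it. Its intracellular domain then enters the nucleus, joins the DNA-binding protein Rbpj and switches on genes such as Hes1, Hes5 and Hey1. Their products are repressors that hold back proneural genes, and in the embryonic cortex the pathway is known for keeping progenitors undifferentiated and later for favouring glial fates.

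Total counts were 11830839 to 15766429 in cKO libraries and 15096888 to 18863781 in WT libraries. Set 2 and set 1 lay apart on the first principal component, which held 48.5% of the variance. Mettl8 itself was higher in every library labelled cKO, at 59.3 to 80.9 CPM, than in any labelled WT, at 35.9 to 58.6 CPM. Such a separation towards cKO was found for 5 of the 13105 tested genes (0.0382%). The counts thus showed no loss of Mettl8 RNA in cKO, and the reason was not tested. A count over the whole gene cannot show the loss of part of it, so the Mettl8 counts did not check the labels, and cKO and WT stand here for libraries so labelled. CPM are read counts relative to library size after TMM scaling, an edgeR step that evens out library composition. No label tells whether replicates were separate cultures or animals, so p-values cover only the spread among these libraries and that spread may be technical. In bulk RNA, fewer cells of a type and less RNA per cell cannot be told apart. Radial glia markers were present in every library: the summed level of 8 such genes (Nes, Sox2, Pax6, Vim, Fabp7, Slc1a3, Sox9 and Prom1) was 11800 to 17000 CPM. Most of that sum came from Fabp7 and Slc1a3, which averaged 7640 and 5180 CPM. Nes, Sox2, Pax6 and Prom1 averaged 62.9, 68.4, 81.1 and 83.7 CPM. The endothelial marker Tie1 and the proneural gene Neurog1 had 0 counts in all 12 libraries.

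The genes lie at these RefSeq positions of build GRCm38.p6. Of the receptors, Notch1 lies at chr2:26457902-26503822, Notch2 at chr3:98013538-98150367 and Notch3 at chr17:32120820-32166896. Of the ligands, Dll1 lies at chr17:15367354-15376932, Dll3 at chr7:28293555-28301785 and Jag1 at chr2:137081451-137116520. Rbpj lies at chr5:53555779-53657445. Of the targets, Hes1 lies at chr16:30065357-30067796, Hes5 at chr4:154960626-154962372 and Hey1 at chr3:8663359-8667038. The lncRNA gene 0610009E02Rik overlaps Notch1 by 1489 bases and had 4 to 17 counts per library, against 551 to 1065 for Notch1. The strand setting of the counting is not given in the sources used here, so reads of that overlap cannot be assigned to either gene.

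RefSeq promoters of 8 of the 10 genes were at hand and Hes1 and Hey1 were not listed. The promoters were searched for the letters that Rbpj is known to bind, and no binding was measured. The window runs from 250 bases before to 50 bases after the listed start. The core TGGGAA and the longer GTGGGAA, which contains the core, were searched on both strands. Of 27025 promoters of the same length (1 per gene), 25.5% held the core at least once and 3.84% held it 2 or more times. The longer form was in 6.39% of promoters, and 71 promoters (0.263%) held it 2 or more times. Hes5 held the longer form 2 times, at bases -226 to -220 from the start on the minus strand and at bases -83 to -77 on the plus strand. The first listed Rbpj promoter held the core 2 times, at bases -149 to -144 and, on the minus strand, at -65 to -60, and did not hold the longer form. The listed promoters of Notch1, Notch2, Notch3, Dll1, Dll3 and Jag1 held neither. The core was thus in 2 of the 8 genes, near the share of all promoters (25.5%). Both genes held it 2 or more times, beside 3.84% of all promoters. The 3 sequences below are the Hes5 promoter, chr4:154960673-154960972 on the plus strand, the Rbpj promoter, chr5:53590096-53590395 on the plus strand, and for contrast the first listed Dll1 promoter, chr17:15375774-15376073 on the minus strand. All 3 windows lie inside the RefSeq span of their gene given above, so none holds its outermost start. The second listed Dll1 promoter, chr17:15376883-15377182, spans the outermost start of Dll1 and has no core either. Capitals mark the core on either strand, TGGGAA or its reverse complement TTCCCA, and the Dll1 sequence has none. A match is a description of the letters and not a bound site.
Hes5 promoter: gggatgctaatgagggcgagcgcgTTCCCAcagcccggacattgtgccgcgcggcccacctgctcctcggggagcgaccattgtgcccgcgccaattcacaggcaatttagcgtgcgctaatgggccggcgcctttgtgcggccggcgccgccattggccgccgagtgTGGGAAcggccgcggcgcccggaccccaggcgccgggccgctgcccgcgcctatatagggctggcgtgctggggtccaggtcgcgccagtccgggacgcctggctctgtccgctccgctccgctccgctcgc
Rbpj promoter: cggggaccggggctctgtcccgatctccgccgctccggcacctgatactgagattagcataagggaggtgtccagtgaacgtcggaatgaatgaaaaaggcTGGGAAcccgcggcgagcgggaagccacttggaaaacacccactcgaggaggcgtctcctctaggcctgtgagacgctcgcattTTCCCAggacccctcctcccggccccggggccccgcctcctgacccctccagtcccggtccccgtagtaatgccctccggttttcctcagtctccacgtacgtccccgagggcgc
Dll1 promoter: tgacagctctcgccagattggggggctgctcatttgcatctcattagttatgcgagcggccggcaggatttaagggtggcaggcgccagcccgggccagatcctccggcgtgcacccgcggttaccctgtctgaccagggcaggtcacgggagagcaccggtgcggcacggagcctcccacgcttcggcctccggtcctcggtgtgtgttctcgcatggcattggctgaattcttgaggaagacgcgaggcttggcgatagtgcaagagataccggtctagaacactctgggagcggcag

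The comparison of libraries labelled cKO with those labelled WT addresses Mettl8, which encodes a mitochondrial RNA methyltransferase. None of the 10 Notch genes passed an adjusted p of 0.05 (edgeR quasi-likelihood test with library set as a covariate, Benjamini-Hochberg over 13105 genes), and neither did any other gene, so the background was 0%. At an unadjusted p of 0.05, 2 of the 10 stood out, Dll1 with a higher and Hes1 with a lower level in cKO, where 6.14% of all tested genes did so (2.86% higher and 3.28% lower). DESeq2 and limma-voom also called 0 of the 10, and called 2 and 1 of all genes. The log2 fold change was above 0 for 5 genes, beside 49.6% of all tested genes, and below 0 for 5, with a median of 0.01 against -0.001 over all genes tested. The cKO and WT libraries overlapped for all 10 genes, and over all tested genes 0.13% did not overlap.

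**Figure D1:**
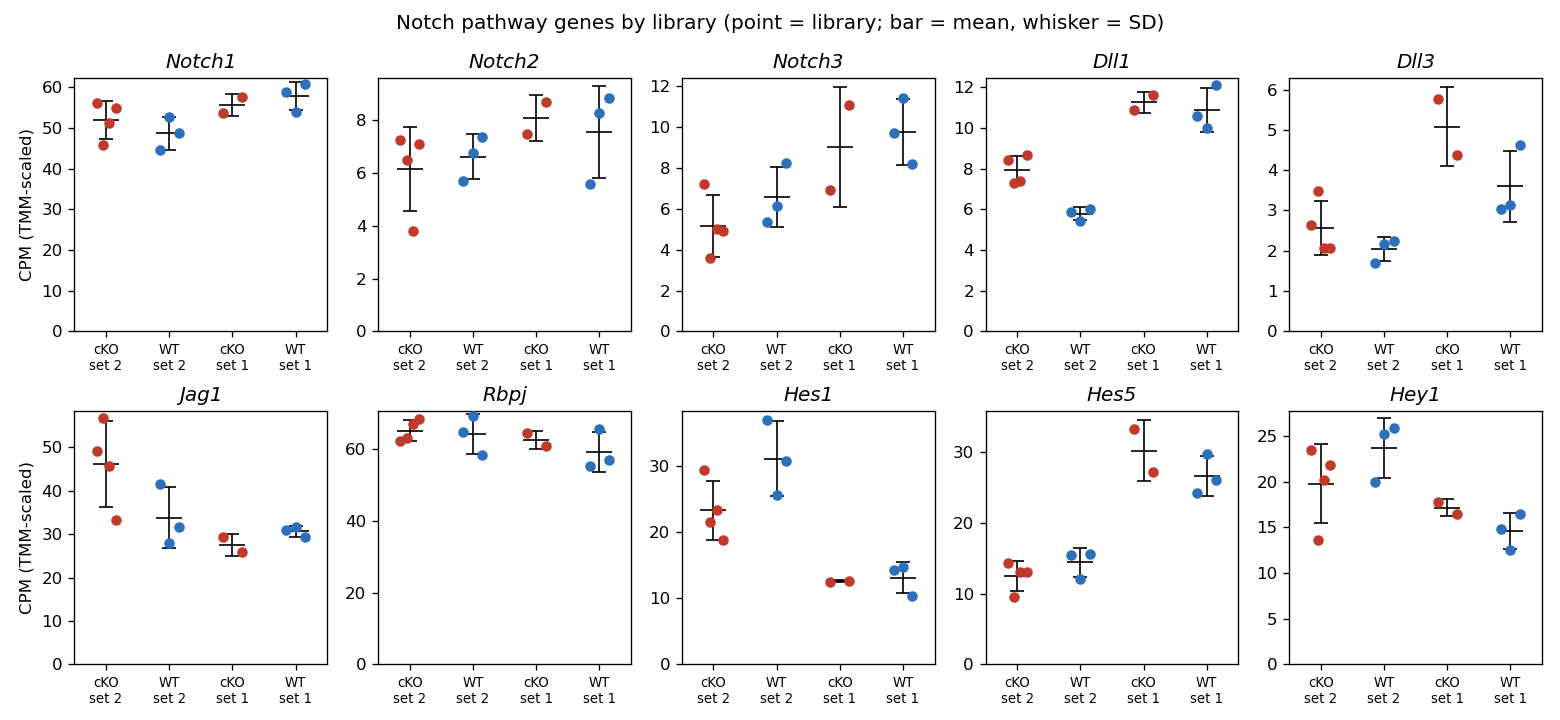
Levels of the 10 Notch pathway genes in CPM (vertical axes, from 0) in every RNA-seq library, by genotype and library set. Points are libraries, bars are means and whiskers are SD. Hes1 lay at 18.9 to 37 CPM in set 2 and 10.4 to 14.8 CPM in set 1, and Hes5 at 9.45 to 15.6 CPM in set 2 and 24.2 to 33.2 CPM in set 1.

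None of the 3 receptors passed the test between the genotypes, and their values ran from near 0 for Notch1 and Notch2 to a lower mean of Notch3 in cKO. Notch1, a principal receptor of cortical progenitors, had 45.7, 54.3 and 57.5 CPM (lowest, median, highest) in cKO against 44.6, 53.2 and 60.7 CPM in WT. Its log2 fold change was 0.03 with a 95% interval of -0.12 to 0.19. Notch2 had 3.79, 7.17 and 8.69 CPM in cKO against 5.57, 7.06 and 8.83 CPM in WT, a log2 fold change of -0.02 (-0.38 to 0.34). The single cKO library at 3.79 CPM lay below all others. Notch3, a receptor also known from vessel walls, had 3.57, 5.96 and 11.1 CPM in cKO against 5.36, 8.20 and 11.4 CPM in WT. Its log2 fold change was -0.25 (-0.62 to 0.13), and the edgeR adjusted p was 0.872.

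All 3 ligands had positive values in cKO over WT and none passed the test. Dll1, which activates receptors on neighbouring cells, had 7.30, 7.39, 8.42 and 8.65 CPM in cKO of set 2 against 5.42, 5.88 and 6.04 CPM in WT of set 2. It had 10.9 and 11.6 CPM in cKO of set 1 against 10, 10.6 and 12.1 CPM in WT of set 1. In set 2 the lowest cKO library lay above the highest WT library, as in 3.89% of tested genes, whereas the groups overlapped in set 1. The Dll1 log2 fold change was 0.28 ± 0.13 (SE) over both sets, with a 95% interval of 0.01 to 0.54 and an edgeR adjusted p of 0.806. Dll3, a divergent ligand known to hold Notch back within the cell that makes it, had 2.07, 3.06 and 5.77 CPM in cKO against 1.70, 2.64 and 4.62 CPM in WT. Its log2 fold change was 0.40 ± 0.21 (SE) with the widest interval of the 10, -0.04 to 0.84, and counts of 26 to 89 per library. Jag1, the ligand of the Serrate type, had 33.2, 45.6, 49.2 and 56.7 CPM in cKO of set 2 against 28, 31.7 and 41.6 CPM in WT of set 2. In set 1 it had 25.8 and 29.3 CPM in cKO against 29.3, 31.0 and 31.7 CPM in WT. Jag1 was thus higher on average in cKO of set 2 and lower in cKO of set 1, with overlapping libraries in both, and its log2 fold change over both sets was 0.21 ± 0.14 (SE, edgeR adjusted p 0.862).

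Rbpj, the DNA-binding partner of the cleaved receptor, had 60.9, 63.7 and 68.4 CPM in cKO against 55.3, 61.7 and 69.4 CPM in WT. Its log2 fold change was 0.05 with a 95% interval of -0.09 to 0.19, the narrowest of the 10.

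The 3 target genes had values below 0 in cKO over WT and none passed the test. Hes1, a repressor that also holds down its own gene, had 18.9, 21.6, 23.4 and 29.4 CPM in cKO of set 2 against 25.7, 30.8 and 37.0 CPM in WT of set 2. In set 1 it had 12.5 and 12.7 CPM in cKO against 10.4, 14.3 and 14.8 CPM in WT. The cKO libraries were lower on average in both sets, and the groups overlapped in both. The Hes1 log2 fold change was -0.28 ± 0.13 (SE), with a 95% interval of -0.55 to -0.01 and an edgeR adjusted p of 0.806. Hes5, the target most closely tied to Notch in the cortex, had 9.45, 13.1, 13.1 and 14.3 CPM in cKO of set 2 against 12.1, 15.5 and 15.6 CPM in WT of set 2. In set 1 it had 27.1 and 33.2 CPM in cKO against 24.2, 26 and 29.7 CPM in WT, so the genotypes overlapped in each set. The Hes5 log2 fold change was -0.03 with a 95% interval of -0.28 to 0.22. Hey1, a related repressor, had 13.6, 20.2, 21.8 and 23.4 CPM in cKO of set 2 against 19.9, 25.2 and 25.9 CPM in WT of set 2. It had 16.5 and 17.8 CPM in cKO of set 1, above all of the 12.5, 14.8 and 16.4 CPM in WT of set 1, as in 7.83% of tested genes. Over both sets its log2 fold change was -0.06 (-0.34 to 0.22).

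**Figure D2:**
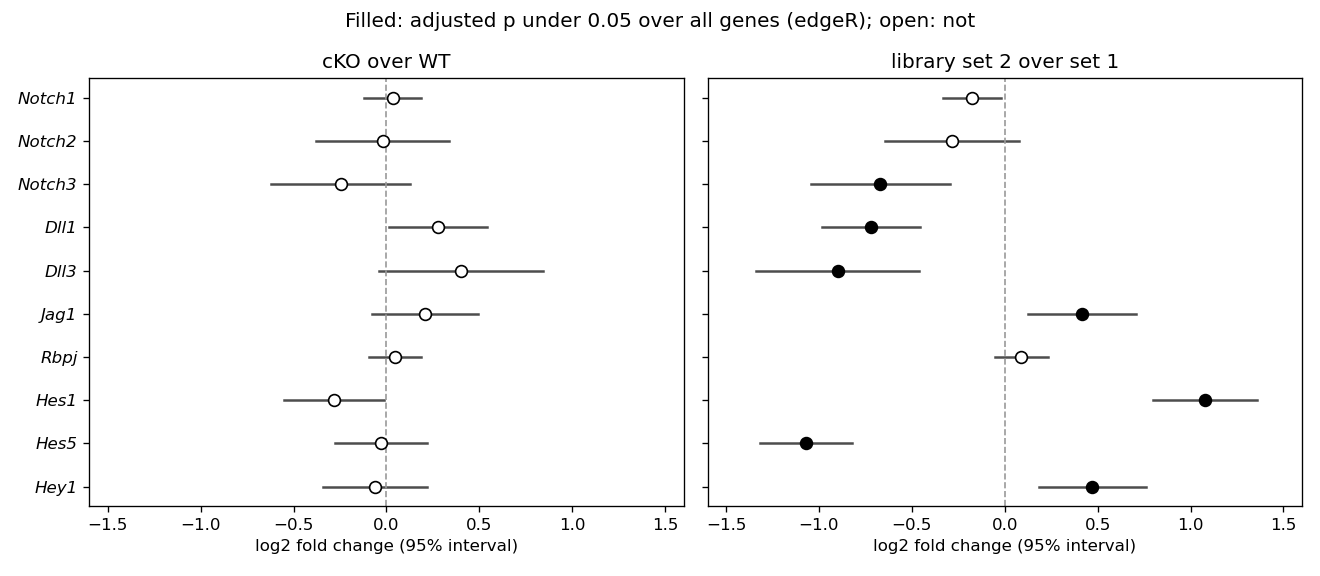
Log2 fold changes of the 10 genes (horizontal axes) with 95% intervals, cKO over WT on the left and library set 2 over set 1 on the right. Filled points passed an edgeR adjusted p of 0.05 over all genes tested, 0 of 10 on the left and 7 of 10 on the right.

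Fitted in each library set alone, the genotype values of several genes differed in sign. The Jag1 log2 fold change of cKO over WT was 0.45 ± 0.16 (SE) in set 2 and -0.15 ± 0.14 in set 1. The Dll1 value was 0.46 ± 0.18 in set 2 and 0.05 ± 0.19 in set 1, and the Hes1 value was -0.41 ± 0.15 in set 2 and -0.07 ± 0.19 in set 1. The Hey1 value was -0.26 ± 0.17 in set 2 and 0.23 ± 0.17 in set 1, and the Hes5 value was -0.20 ± 0.17 in set 2 and 0.18 ± 0.15 in set 1. Of the receptors, Notch1 and Notch2 also had opposite signs in the 2 sets, at -0.06 ± 0.11 and 0.10 ± 0.24 in set 1. The difference between the sets was itself tested as an interaction of genotype and set. No Notch gene passed (edgeR, background 0% of 13105 genes), with an unadjusted p of 0.05 reached by 1 of the 10, Jag1, at an interaction of 0.60 ± 0.24 on the log2 scale (edgeR adjusted p = 1), against 3.54% of all genes. The signs within a set are therefore values without a called difference between the sets.

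**Figure D3:**
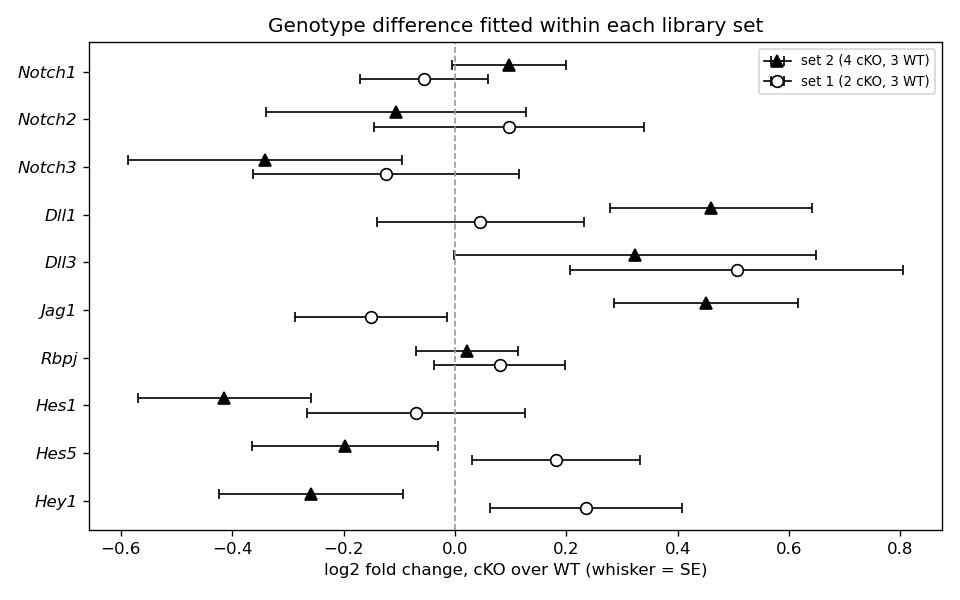
Log2 fold change of cKO over WT (horizontal axis, whiskers are SE) fitted within library set 2 (4 cKO, 3 WT; filled triangles) and within set 1 (2 cKO, 3 WT; open circles). Jag1 lay at 0.45 in set 2 and -0.15 in set 1, and the interaction passed the test for none of the 10 genes.

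Far larger values separated the library sets, in both genotypes. In set 2 over set 1, 7 of the 10 Notch genes passed the test (3 higher and 4 lower, edgeR adjusted p under 0.05), beside 43.8% of all genes tested (21.5% higher and 22.2% lower). Hes1 and Hes5, targets of the same pathway, moved by similar amounts in opposite directions. The median log2 fold change of the 10 genes was -0.23 against 0.001 over all genes tested. Libraries of the 2 sets did not overlap for 3 of the 10, Hes1 (higher in set 2, as 11.7% of tested genes) and Hes5 and Dll1 (lower in set 2, as 11.9%), beside 23.6% of tested genes in either direction.

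Hes1 averaged 26.7 ± 6.19 CPM in set 2 and 12.9 ± 1.74 CPM in set 1 (SD, n = 7 and 5), a 2.11-fold rise with a log2 fold change of 1.08 ± 0.13 (SE, edgeR adjusted p = 2.79e-06). Hes5 averaged 13.3 ± 2.14 CPM in set 2 and 28.1 ± 3.51 CPM in set 1, and fell by 1.07 on the log2 scale (SE 0.12, edgeR adjusted p = 6.96e-07). A log2 difference at least as large as that of Hes5 was found for 912 genes, 6.96% of those tested. The counts of Hes1 per count of Hes5 were 1.44, 1.79, 2.05 and 2.28 in cKO of set 2 and 1.97, 2.13 and 2.39 in WT of set 2. They were 0.375 and 0.468 in cKO of set 1 and 0.400, 0.499 and 0.591 in WT of set 1. The ratio was thus higher in every set 2 library than in any set 1 library, whichever the genotype. Hey1 averaged 21.4 ± 4.16 CPM in set 2 and 15.6 ± 2.03 CPM in set 1 and rose by 0.47 ± 0.14 on the log2 scale (SE, edgeR adjusted p = 0.00936), with overlapping libraries.

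**Figure D4:**
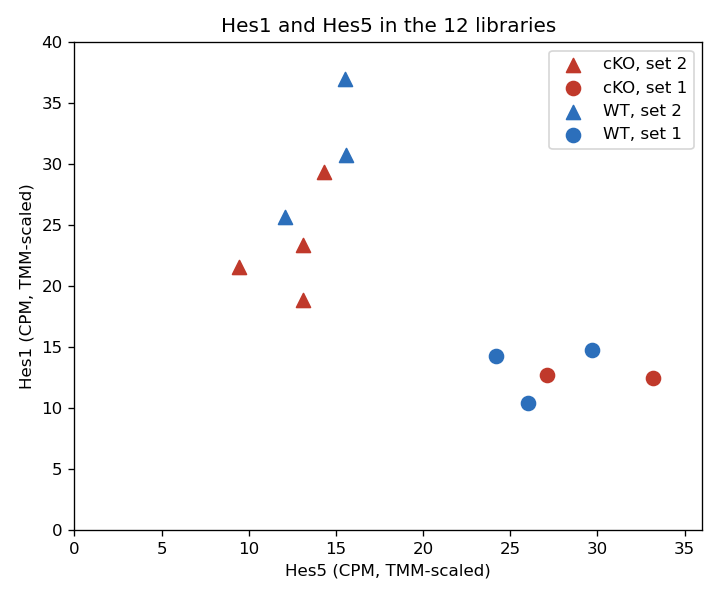
Hes1 (vertical axis) against Hes5 (horizontal axis) in CPM in the 12 libraries, with triangles for set 2, circles for set 1, red for cKO and blue for WT. Set 2 libraries lie at 18.9 to 37 CPM of Hes1 and 9.45 to 15.6 CPM of Hes5, and set 1 libraries at 10.4 to 14.8 CPM of Hes1 and 24.2 to 33.2 CPM of Hes5.

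The Delta-type ligands both fell in set 2. Dll1 averaged 7.01 ± 1.27 CPM in set 2 and 11.1 ± 0.831 CPM in set 1, a log2 fold change of -0.72 ± 0.13 (SE, edgeR adjusted p = 0.000127). Dll3 averaged 2.34 CPM in set 2, between 1.70 and 3.48 CPM, and 4.19 CPM in set 1, between 3.03 and 5.77 CPM, a log2 fold change of -0.90 ± 0.21 (SE, edgeR adjusted p = 0.00178). Jag1 averaged 40.9 ± 10.4 CPM in set 2 and 29.4 ± 2.25 CPM in set 1 and rose by 0.41 ± 0.14 on the log2 scale (SE, edgeR adjusted p = 0.0212). The Jag1 call rested on single libraries: its edgeR adjusted p was 0.0836 without cKO replicate 1, 0.11 without cKO replicate 2 and 0.0605 without WT replicate 4. Of the receptors, Notch3 fell by 0.67 on the log2 scale (SE 0.18, edgeR adjusted p = 0.00502), averaging 5.78 ± 1.56 CPM in set 2 and 9.46 ± 1.90 CPM in set 1. Notch1 averaged 50.6 ± 4.40 CPM in set 2 and 56.9 ± 3.10 CPM in set 1, a log2 fold change of -0.18 (edgeR adjusted p = 0.0624), which passed the test without cKO replicate 3 (edgeR adjusted p = 0.0428) or without cKO replicate 6 (0.0485). Notch2 at -0.29 (edgeR adjusted p = 0.193) and Rbpj at 0.09 (0.307) did not pass.

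The set values were also fitted in each genotype alone, where 4 of the 10 genes passed in cKO libraries, beside 27.6% of 11782 genes tested, and 4 in WT libraries, beside 28% of 12049. Hes1 passed in both, with a log2 fold change of 0.90 in cKO (edgeR adjusted p = 0.00248) and 1.24 in WT (7.11e-05). Hes5 passed in both, at -1.25 in cKO (edgeR adjusted p = 0.00011) and -0.89 in WT (0.000448). Dll3 and Jag1 passed in cKO alone, Jag1 at 0.75 in cKO (edgeR adjusted p = 0.00551) and 0.15 in WT (0.483). Dll1 and Hey1 passed in WT alone, Dll1 at -0.49 in cKO (edgeR adjusted p = 0.079) and -0.91 in WT (0.00197), Hey1 at 0.22 in cKO (0.435) and 0.71 in WT (0.00324). The interaction test above is the test of these differences, and no Notch gene passed it. Notch3 did not pass in either genotype alone, at -0.78 in cKO (edgeR adjusted p = 0.0556) and -0.56 in WT (0.0614).

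Markers of cell types moved with the sets too, and their part in the Notch values was not tested. Over all genes tested, 21.5% were called higher and 22.2% lower in set 2. Of 6 astrocyte markers, 5 fell and their median log2 fold change was -1.06, with summed levels of 674 to 1350 CPM in set 2 and 2060 to 2900 CPM in set 1. The gap junction gene Gja1 fell by 2.06 and the water channel gene Aqp4 by 1.38 on the log2 scale. Of 5 tested neuronal markers, 4 rose, and the median log2 fold change of the 5 was 1.05. Summed levels of the 7 neuronal markers found, tested or not, were 146 to 302 CPM in set 2 and 94.3 to 120 CPM in set 1. Stmn2, a microtubule regulator of growing axons, rose by 5.21. Of 7 oligodendrocyte lineage markers, 5 fell, with summed levels of 391 to 669 CPM in set 2 and 889 to 1140 CPM in set 1. The 8 radial glia markers split, with Vim at 1.08, Nes at 0.69 and Fabp7 at 0.53 among the 4 that rose, and Sox2 at -0.30 and Slc1a3 at -0.49 among the 4 that fell. By genotype no marker passed the test (edgeR). In cKO over WT, 6 of 6 astrocyte markers and 5 of 5 tested neuronal markers were below 0, at medians of -0.14 and -0.18. So were 6 of 8 radial glia markers and 4 of 7 oligodendrocyte lineage markers. The 2 tested markers of the ventral and interneuron lineage were above 0, as were 49.6% of all genes tested.

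The rest of the pathway was read from 86 further genes in 8 lists, of which 71 were tested. No gene of these lists passed in cKO over WT (edgeR); at an unadjusted p of 0.05, 1 was higher and 4 were lower, beside 2.86% and 3.28% of all genes tested, and the median log2 fold change was -0.01. A share of 5 in 71 is near that of all genes (6.14%), so the names are given as a description. The 5 were Neurl1a, an E3 ligase acting on ligands, at 0.74, the microfibril gene Mfap2 at -0.31, the gamma-secretase subunit gene Aph1c at -0.60, the Fringe gene Rfng at -0.46 and Id4, an inhibitor of bHLH factors, at -0.65, with edgeR adjusted p of 0.803 to 0.805. Between the library sets 34 of the 71 passed: 11 were higher and 23 lower in set 2, with a median of -0.11, beside 43.8% of all genes tested (21.5% higher and 22.2% lower). The lists below are given as counts to be read against those shares.

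Among 4 tested ligand-like genes, 1 was higher in set 2 (Mfap2, 1.142) and 2 were lower (Dner, a neuronal transmembrane protein, -0.88, and the adhesion gene Cntn1, -0.38). Dll4, Jag2 and the receptor gene Notch4 averaged 0.375, 0.0772 and 0.121 CPM and were below the filter. Of 10 genes that cleave the receptor, 4 fell in set 2 and none rose, beside 22.2% lower and 21.5% higher over all genes. The gamma-secretase gene Ncstn had a log2 fold change of -0.05 and did not pass, whereas Aph1c fell by 1.12. Of 5 glycosylation genes, 2 fell, Mfng by 0.80 and Poglut1 by 0.13, and Rfng did not pass at -0.08. Of 16 genes of endocytosis and turnover, 2 rose, including Epn2 at 0.48, and 4 fell; Itch, a ubiquitin ligase, did not pass at 0.02. Of 19 tested nuclear cofactors, 3 rose and 5 fell, among them the corepressor genes Tle4 at -0.31 and Ncor1 at -0.13, while Snw1 did not pass at 0.03.

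Of 10 other tested targets, 3 rose and 3 fell between the sets. Fabp7, a fatty acid binding protein of radial glia, rose by 0.53, Id2 fell by 0.28 and Id4 fell by 1.90 on the log2 scale. Nrarp, a feedback inhibitor made in response to Notch, fell by 0.66 (edgeR adjusted p = 0.00094), and the cyclin gene Ccnd1 rose by 1.27 (edgeR adjusted p = 1.38e-09); these last genes, Nrarp and Ccnd1, were picked after their values were seen. Of 7 tested proneural genes and their targets, 2 rose and 3 fell in set 2. Btg2, an antiproliferative gene of neurogenic progenitors, fell by 0.78, the cell cycle inhibitor gene Cdkn1a rose by 0.31 and Insm1 did not pass at -0.07. Eomes, the marker of intermediate progenitors, averaged 0.188 CPM and was below the filter.

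**Figure D5:**
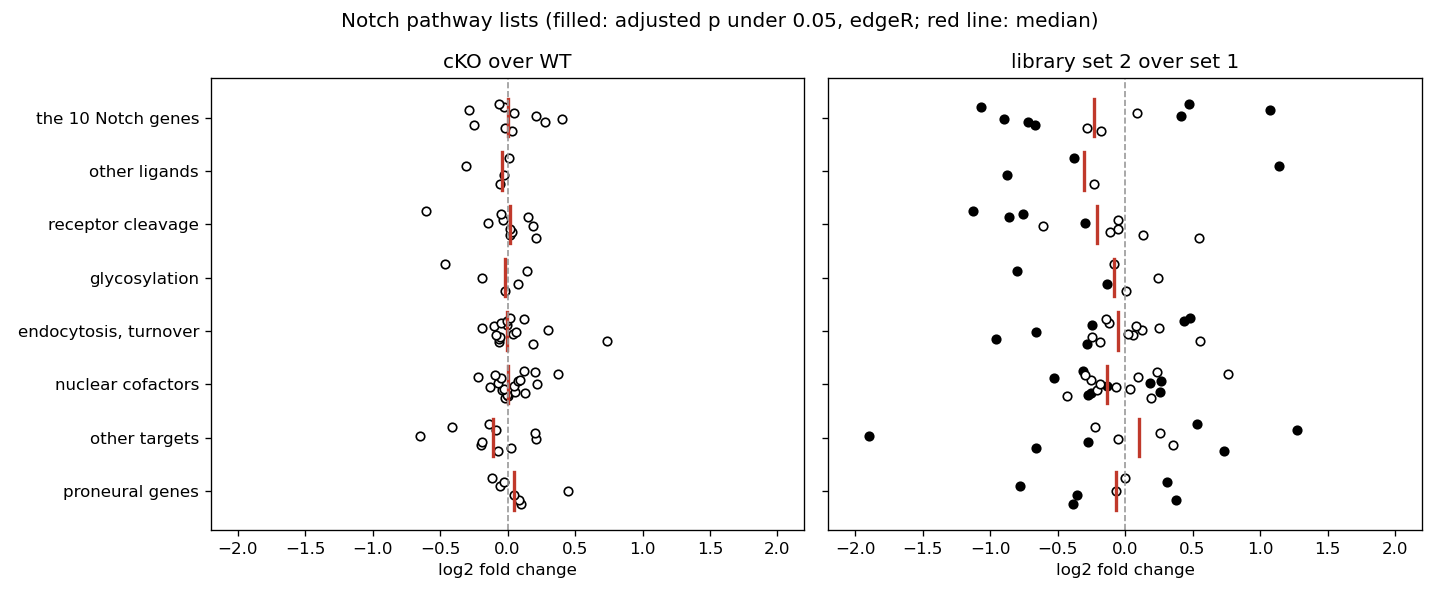
Log2 fold changes (horizontal axes) of the 10 Notch genes and of the tested genes of 7 further lists, cKO over WT on the left and library set 2 over set 1 on the right. Filled points passed an edgeR adjusted p of 0.05 and red lines are medians: no point is filled on the left, and on the right the 10 Notch genes have a median of -0.23.

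As a description, log2 CPM was centred within each library set and correlated over the 12 libraries. Genotype was not removed, so an r can hold differences between cKO and WT as well as spread among libraries. These libraries differ in depth, and no label tells which of them share a culture. Among the Notch genes the lowest r was -0.73 for Jag1 and Hey1, and the highest was 0.59 for Hes5 and Hey1. Hes1 and Hes5, which went in opposite directions between the sets, had an r of 0.54 within them, and Dll1 and Hes1 had an r of -0.60. The genes named next were picked for the highest r among all tested non-Notch genes, over only 12 libraries. That choice by itself raises r, so a high value here does not show shared regulation. The non-Notch genes closest to Hes5 were Npas3 (r = 0.96), Nlgn1 (0.93) and Plin2 (0.91). Those closest to Hes1 were Atxn7l3b (0.92), Hist1h1b (0.86) and Abhd8 (0.86). The closest to the ligands were Trak2 for Dll1 (0.89), N4bp1 for Dll3 (0.88) and Surf2 for Jag1 (0.95). For the receptors they were Katna1 for Notch1 (0.91), Zfp454 for Notch2 (0.93) and Cdh13 for Notch3 (0.94), and for Rbpj and Hey1 they were Fv1 and P2ry6 (0.93 each).

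HAC-seq gave a second readout of the same transcripts. The deposited table held 75 C sites within the 10 genes: 66 in Notch1, 4 in Jag1, 4 in Rbpj, 1 in Notch3 and 0 in the other 6. Cleavage here is the percentage of reads over a C that start 1 base downstream of it. It was tested where coverage was at least 50 in each library and mean cleavage at least 0.05 as a fraction, and 3 sites, all in Notch1, met that. None of the 3 passed (quasi-binomial model with limma squeezing, Benjamini-Hochberg over 13240 sites), beside 0.00755% of all sites tested, and none had an unadjusted p under 0.05, beside 8.64%. At base 26476102 of chromosome 2, cleavage was 12.1, 1.08 and 4.72% in cKO against 3.01, 6.84, 8.72 and 6.42% in WT, at coverage of 91 to 172 reads. The highest and the lowest value both came from cKO libraries, and the groups overlapped. At base 26477987 it averaged 4.87 ± 2.77% in cKO and 5.95 ± 1.70% in WT (SD, n = 3 and 4), with a limma-squeezed adjusted p of 0.946. At base 26481205 it averaged 5.57 ± 2.54% in cKO and 5.10 ± 2.21% in WT, with a limma-squeezed adjusted p of 0.942. The table lists a site only where more than 1 read started there in every WT library, so its untested low values lean towards WT: over the 66 Notch1 sites the median cleavage was 4.42% in cKO and 4.81% in WT, which is given without a test.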

How the data were processed

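The submitters' processing notes name STAR 2.5.2a, Trimmomatic 0.32 and bcl2fastq 2.17.1.14; builds were GRCm38 (RNA-seq) and GRCm38.p6 (HAC-seq). Counter and annotation: not given in the sources used here. Raw gene counts form the deposited RNA-seq table. Of counts from 1 to 10, 17.4% were odd; an alternative divided all counts by 2. The deposited HAC-seq table gives, per C site and library, read starts (a coverage signal), all reads at the site and their quotient as a fraction, with the authors' p-value, which was not used. Of 135582 entries, 118890 were unique sites.

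The fit used edgeR 4.0.16 under R 4.3.3, with genes kept by filterByExpr on genotype, TMM scaling and a two-sided quasi-likelihood F test with genotype and library set as terms. Benjamini-Hochberg adjustment ran over all genes tested. Intervals are 95%, from the fit's degrees of freedom. Correlations used log2 CPM with a prior count of 2. DESeq2 1.42.0 and limma 3.58.1 (voom) were alternatives. A quasi-binomial model with dispersions squeezed by limma served for the share of reads starting at a C site. Scripts were tested on simulated data. Beyond the 10 genes, the text names, by rule, in each list the 2 genes of highest mean CPM and the 1 of smallest genotype p, the 3 genes most like each Notch gene (for most only the first is named) and cell type markers; a gene the rule names is not reported here. The genes and lists were chosen with earlier results of these data known. Libraries of 1 group were compared and none were duplicates, with a chi-square per degree of freedom of 8.19 to 18.2. Transcript lengths were not used, so levels are not compared between genes.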

Additional observations from a re-analysis of the deposited data

Results flagged for a closer look

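Of 30 groups of libraries examined (10 genes, each in cKO, in WT and in cKO libraries of set 2), 1 held a library far from the others. Jag1 had 41.6 CPM in WT replicate 4, the highest of the 6 WT libraries, which otherwise lay between 28 and 31.7 CPM. Its gap to the next library was 0.728 of the range of the group, above the limit of 0.625 for 6 libraries. The limit is set so that chance flags about 1 in 20 groups drawn from a single normal distribution. The cKO and WT groups here mix both library sets, and the cKO libraries of set 2 are also in the cKO groups. That rate therefore need not hold here. Without this library the Jag1 log2 fold change of set 2 over set 1 was 0.37 (edgeR adjusted p = 0.0605).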

How the results depend on the processing

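Across 21 alternatives, 0 of the 10 Notch genes were called in cKO over WT; of 210 values of single genes 193 kept direction and side of the threshold and 17 changed sign, none of them called. Genes called in cKO over WT, 0 in the fit reported, numbered 65 without the filter on low counts (20 higher, 45 lower), 2 by DESeq2, 1 by limma-voom, 2 in library set 2 alone and 0 to 1 with each library left out (1 without WT replicate 3 or WT replicate 6). Signs turned in library set 1 alone for Notch1 (-0.0557), Notch2 (0.097), Jag1 (-0.151), Hes5 (0.181) and Hey1 (0.235), by limma-voom for Hes5 (0.0146) and with no library set term for Notch1 (-0.000645). With each library left out, Notch1 ran between -0.00614 and 0.065, Notch2 between -0.0982 and 0.0827, Hes5 between -0.123 and 0.0392 and Hey1 between -0.128 and 0.0326. The cause of these changes was not tested.

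The labels do not say whether replicate numbers pair cKO and WT libraries. Between libraries of the same number, deviations from the mean of genotype and set had r between -0.05 and 0.17. Of the 6 cKO libraries, 1, number 4, matched its own number best. Set 1 holds only 2 cKO libraries, and number 3 lies in different sets for cKO and WT. These values therefore cannot settle whether libraries were paired. With the replicate number as a replicate block, 2 genes were called in cKO over WT and 0 of the 10 Notch genes, and in HAC-seq 1 site was called.

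Between the sets, 179 of 190 values kept direction and side, 9 lost the call, 2 gained it and 0 changed sign. Called genes numbered 5736, against 3257 in cKO alone and 3371 in WT alone, where fewer libraries were used, and 4957 to 5727 with each library left out. Called Notch genes numbered 7, against 4 in cKO alone, 4 in WT alone and 6 to 8 with each library left out. Genes with a called interaction, 0 in the fit reported, numbered 35 without the filter, 2 by DESeq2 and 0 to 1 with each library left out; left-out libraries moved the interaction between -0.519 and 0.153 for Notch3, between -0.397 and 0.0309 for Dll3 and between -0.138 and 0.00216 for Rbpj. Called C sites numbered 1, against 3 at a mean cleavage of at least 0.01 and 1 to 22 with each library left out (22 without cKO replicate 2, 2 without cKO replicate 1). The median cleavage difference of the tested Notch1 sites, cKO minus WT, was -0.28 points and ran between -1.52 and 0.90 with each library left out. Over all 13240 sites tested the median difference was 0.57 points, and 61.4% of sites were above 0. At a coverage of at least 100 no site of these genes was left. Dll3, with 26 to 89 counts per library, had the largest SE of the 10 genes in cKO over WT (0.21).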
